A study of Rattus norvegicus with 12 samples.

Results

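The aldehyde dehydrogenases (Aldh), aldo-keto reductases (Akr), UDP-glucuronosyltransferases (Ugt) and sulfotransferases (Sult) were followed in rat renal cortex after cisplatin. Members were all genes whose symbol starts with one of these 4 family names and a digit and which an array probe matched by its accession. There were 62 of them among 15645 named genes: 17 Aldh, 18 Akr, 14 Ugt and 13 Sult genes. Of several probes of a gene, the one with the highest mean over the 12 arrays stood for it. Another 34 family symbols of the RefSeq table, 20 of them pseudogenes, were matched by no probe and were not analysed here.

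Renal cortex RNA of 12 rats (male, Sprague-Dawley, bought at 5 weeks of age) was hybridised to 1-colour Agilent arrays, 1 animal per array. Cisplatin, a chemotherapeutic that damages DNA and is toxic to kidney tubules, was given for 4 weeks by gavage at 3.75 mg/kg/day or by intravenous injection at 0.75 mg/kg/day, per the labels of the samples. Each route had its own group given water, and all 4 groups held 3 animals, which the labels number as replicates. Route, dose and experiment changed together and cannot be told apart. The treatment text shared by all samples names 3.75 mg/kg/day alone, and the dose of the intravenous animals was taken from their own labels.

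Both oxidation and reduction of reactive carbonyls begin with these families. Aldehyde dehydrogenases oxidise aldehydes to acids, among them retinal to retinoic acid and intermediates of amino acid, folate and carnitine metabolism, and aldo-keto reductases reduce aldehydes and ketones, including glucose, glucuronate and steroids. Glucuronosyltransferases and sulfotransferases then attach glucuronic acid or sulfate to steroids, bilirubin, phenols and drugs, which makes them easier to excrete. In the kidney, the proximal tubule is the main site of many of these enzymes.

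Values are log2 processed intensity minus the array's own 75th percentile, so 0 is that percentile, and a level is compared only with the same gene on other arrays. Changes are cisplatin minus water on this log2 scale, from a limma fit of all 12 arrays, with Benjamini-Hochberg adjustment over 32215 features and a threshold of 0.05. A gene was said to rise or fall only where it passed. The 75th percentile was 969.7 to 1055 on the water arrays and 1387 to 1532 on the cisplatin arrays. Scaling instead to 7 spike-in probes raised each gavage change by 0.67 and each intravenous change by 0.56 and moved the median change of all features from 0.0013 to 0.67 by gavage and from -0.07 to 0.49 intravenously. All gavage water arrays shared slide 1 with cisplatin replicate 1 of that experiment. The other gavage cisplatin arrays were on slide 2 together with intravenous water, and intravenous cisplatin had slide 3 to itself, so slide and treatment cannot be told apart in the intravenous experiment.

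The tissue label was checked against 10 proximal tubule markers, all of which passed the filter on dim probes. Their summed level, in multiples of the array's 75th percentile, was 1190 to 1330 on gavage water arrays, 80 to 166 on gavage cisplatin arrays, 1100 to 1260 on intravenous water arrays and 147 to 449 on intravenous cisplatin arrays. The 10 markers fell by gavage in 10 cases and intravenously in 8. The 6 tested markers of ascending limb and distal tubule all fell in both experiments, from a sum of 495 to 601 on water arrays to 7.76 to 50.7 on cisplatin arrays. All 6 fibroblast and pericyte markers rose in both (15.5 to 24.6 against 56 to 109), as did 4 of 5 macrophage markers (3.15 to 5.21 against 8.08 to 13.8). In whole tissue, fewer cells of a type and less RNA per cell cannot be told apart. The part of these markers in the members' changes was not tested. All marker counts stand beside 30.2% of all features falling and 29.5% rising by gavage, and 32.6% falling and 26.1% rising intravenously. Among the other lists, 5 of 7 collecting duct and 4 of 5 podocyte markers fell in both experiments. Endothelial markers fell in 3 of 5 cases by gavage and 2 of 5 intravenously, and hepatocyte markers in 2 and 1 of 4. The intravenous shares that fell, 40% of endothelial and 25% of hepatocyte markers, were near the 32.6% of all features. Lymphocyte markers rose in 0 of 3 and 2 of 3, and adipocyte markers in 2 of 3 and 3 of 3. Adrenal cortex markers split into 1 rise and 2 falls in each experiment, and Cyp11b2 stayed at background on every array. These smaller shifts depend on the scaling. With spike-in scaling 0 podocyte markers fell in either experiment and 1 rose intravenously, 3 collecting duct markers fell and 1 rose by gavage and 1 fell and 1 rose intravenously, and 2 endothelial markers rose and 1 fell in each. With that scaling 9 proximal tubule markers fell by gavage and 7 intravenously, and the 6 ascending limb and distal tubule markers all fell.

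Of the 62 members, 48 passed the filter on dim probes, which asked that every array of some group be well above background, and 46 were well above background on all 12 arrays. By gavage 32 members fell, 8 rose and 8 did not pass, with a median change of -1.34. Over all features 30.2% fell and 29.5% rose by gavage (59.6% in either direction), with a median of 0.0013. Among the 12610 named genes tested, which these members belong to, 32.7% fell and 30.2% rose by gavage (62.9% in either direction) and 31.7% fell and 29.8% rose intravenously (61.5%). Intravenously 23 members fell, 8 rose and 17 did not pass, with a median of -0.56, against 32.6% of all features falling and 26.1% rising (58.7% in either direction) and a median of -0.07. All 30 members that passed in both experiments moved the same way in both, 23 down and 7 up, and 21 of the 23 falls were larger by gavage. How often all features kept their direction or fell further by gavage was not counted, so these counts cannot be called particular to the members. With spike-in scaling, 13 members rose and 23 fell by gavage and 14 rose and 13 fell intravenously, so the split depends on the scaling. Of all 32215 features, 20049 then rose and 3103 fell by gavage, and 17052 rose and 3034 fell intravenously. The falls of Aldh16a1, Aldh4a1, Ugt1a1, Ugt1a2 and Ugt1a6 no longer passed in either experiment with that scaling.

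**Figure D1:**
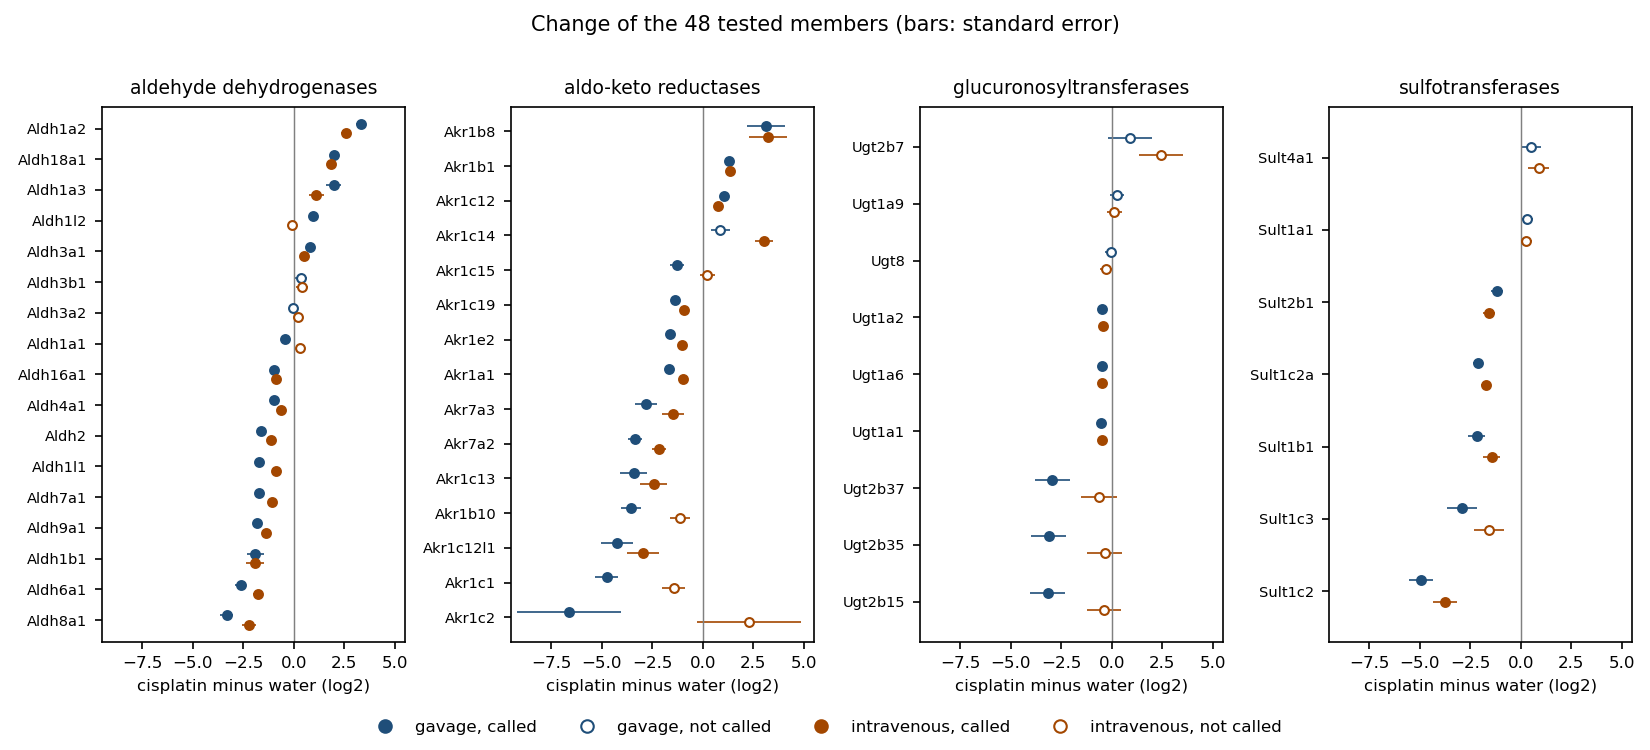
Change of the 48 tested members (x axis, log2 cisplatin minus water) in each family, ordered by the gavage change, with the standard error as a bar. Filled points passed the test and open points did not. Falls outnumber rises, 32 to 8 by gavage and 23 to 8 intravenously, and no glucuronosyltransferase or sulfotransferase rose with this scaling (1 to 2 of a family did with spike-in scaling).

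By family, 10 of 17 aldehyde dehydrogenases fell and 5 rose by gavage (median -0.98), and 9 fell and 4 rose intravenously (median -0.61). Among 15 tested aldo-keto reductases, 11 fell and 3 rose by gavage (median -1.68) and 7 fell and 4 rose intravenously (median -0.99). With spike-in scaling 7 aldehyde dehydrogenases rose and 7 fell by gavage, and 7 rose and 5 fell intravenously (medians -0.31 and -0.05), and 4 aldo-keto reductases rose and 9 fell by gavage, and 4 rose and 5 fell intravenously (medians -1.02 and -0.43). Of 9 tested glucuronosyltransferases, 6 fell by gavage and 3 intravenously, and of 7 tested sulfotransferases 5 and 4 fell, with no rise in either family. Of all features 30.2% fell and 29.5% rose by gavage, and 32.6% fell and 26.1% rose intravenously. The share of glucuronosyltransferases that fell intravenously, 33.3%, was near that of all features. With spike-in scaling the median of the glucuronosyltransferases turned positive, at 0.16 by gavage and 0.18 intravenously, and 1 of them rose in each experiment, while 1 sulfotransferase rose by gavage and 2 intravenously. The water and cisplatin arrays did not overlap for 39 of 48 members by gavage and 33 of 48 intravenously, against 67.2% and 66.2% of all features.

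The animals of a cisplatin group differed in how far they departed from water. Gavage cisplatin replicate 3 had the lowest value of its group for 27 of the 32 members that fell and the highest for 6 of the 8 that rose. Intravenous cisplatin replicate 1 had the lowest value for 20 of the 23 that fell and the highest for 7 of the 8 that rose. The same animals had the lowest proximal tubule marker sums of their groups, 80 against 121 and 166 for gavage and 147 against 374 and 449 for intravenous cisplatin. Leaving out either of these arrays, or another, ended or made the calls of some members, whose values without it are given. Which animal was most extreme was not counted over all features, and members read on 1 array are not independent of each other.

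Aldh1a2, a retinaldehyde dehydrogenase that makes retinoic acid, rose most among the aldehyde dehydrogenases. By gavage it read -2.84, -3.21 and -3.12 on the water arrays and -0.30, 0.63 and 0.47 on the cisplatin arrays. In the intravenous experiment it read -2.49, -2.64 and -2.67 on the water arrays and 0.48, -0.22 and -0.29 on the cisplatin arrays. Every cisplatin array stood above every water array, and the change was 3.32 (SE 0.26, adjusted p = 4.55e-06) by gavage and 2.59 (SE 0.26, adjusted p = 3.22e-05) intravenously. Aldh1a3, another retinaldehyde dehydrogenase, read -3.75, -4.33 and -4.06 on the water arrays and -2.30, -2.54 and -1.40 on the cisplatin arrays by gavage. Intravenously its values were -3.61, -3.94 and -4.27 on the water arrays and -2.02, -3.34 and -3.11 on the cisplatin arrays. Here too the groups did not overlap, with changes of 1.96 (SE 0.38, adjusted p = 0.00128) by gavage and 1.12 (SE 0.38, adjusted p = 0.0271) intravenously. The intravenous rise of Aldh1a3 no longer passed without intravenous water replicate 2, at 1.12 (adjusted p = 0.061), without replicate 3, at 0.95 (adjusted p = 0.088), or without intravenous cisplatin replicate 1, at 0.71 (adjusted p = 0.0956), and normexp background correction gave 0.58 (adjusted p = 0.0736).

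Aldh1a1, another enzyme of this kind, moved less, with gavage and intravenous animals on opposite sides of their water groups. Gavage values were 6.67, 6.87 and 6.61 on the water arrays and 6.27, 6.46 and 6.18 on the cisplatin arrays, all cisplatin arrays below all water arrays. Intravenous values were 6.51, 6.44 and 6.68 on the water arrays and 6.92, 6.71 and 6.85 on the cisplatin arrays, all cisplatin arrays above all water arrays. It fell by gavage, -0.41 (SE 0.11, adjusted p = 0.00883), a sign that turned to 0.25 with spike-in scaling, and was -0.19 (adjusted p = 0.222) with quantile normalization. The intravenous change of 0.28 (SE 0.11, adjusted p = 0.0504) missed the threshold but passed under 9 alternatives. Among these it was 0.42 (adjusted p = 0.016) with quantile normalization, 0.84 (adjusted p = 0.00145) with spike-in scaling, 0.27 (adjusted p = 0.0452) with normexp and 0.28 (adjusted p = 0.0469) with a random slide block. Without intravenous water replicate 3 it was 0.35 (adjusted p = 0.0368) and without intravenous cisplatin replicate 2 0.34 (adjusted p = 0.0424). It also passed without gavage water replicate 2, gavage cisplatin replicate 2 or gavage cisplatin replicate 3, at an adjusted p = 0.046, 0.044 and 0.0499. A second probe of the gene gave -0.20 (adjusted p = 0.212) by gavage and -0.04 (adjusted p = 0.801) intravenously.

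Promoter letters were examined because several members are known targets of the transcription factor Nrf2, which binds the antioxidant response element. RefSeq promoters of assembly GRCr8 (250 bases before to 50 after the start) were at hand for 53 of the 62 members. The core TGACNNNGC, searched on both strands, lay in 4 of the 53 (7.5%), against 12.2% of 27457 promoters. Among the members that rose it was found in Aldh1a2 alone of 5 with a promoter, at position -161 from the start, and among those that fell in Akr1c15, Aldh16a1 and Aldh9a1 of 30. The windows that follow show the match in capitals with 30 bases on each side, 5′ to 3′ on the gene's strand, so that the riser can be set beside members that fell. They are chr8:80758450-80758518 (plus strand) for Aldh1a2, chr1:104776279-104776347 (minus strand) for Aldh16a1, and chr17:71118059-71118127 and chr17:71117988-71118056 (minus strand) for the upstream and downstream match of Akr1c15. The upstream Akr1c15 match is on the opposite strand and so appears reversed and complemented.
Aldh1a2: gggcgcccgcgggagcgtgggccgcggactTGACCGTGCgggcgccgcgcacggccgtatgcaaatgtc
Aldh16a1: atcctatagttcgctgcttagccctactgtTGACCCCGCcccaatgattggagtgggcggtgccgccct
Akr1c15 upstream: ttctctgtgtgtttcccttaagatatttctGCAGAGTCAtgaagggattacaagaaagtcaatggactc
Akr1c15 downstream: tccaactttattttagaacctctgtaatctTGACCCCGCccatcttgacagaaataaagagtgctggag
The Aldh16a1 match and the downstream Akr1c15 match carry the same 9 letters, and both genes fell by gavage. The core GCGTG of the xenobiotic response element, which the Ahr receptor binds, lay in 14 of the 53 (26.4%), against 31.1% of all promoters. This core occurred in 3 of the 5 that rose, Aldh1a2, Aldh1a3 and Akr1c12, and in 8 of the 30 that fell. A match of this kind describes letters and shows no binding.

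Other genes of retinol handling were measured beside these enzymes. Of 16 tested genes of alcohol and retinol oxidation, 8 fell and 4 rose in each experiment. For comparison, 30.2% of all features fell and 29.5% rose by gavage, and 32.6% fell and 26.1% rose intravenously. With spike-in scaling 6 of the 16 genes fell and 6 rose by gavage, and 3 fell and 6 rose intravenously. Stra6, the membrane receptor that takes up retinol from its carrier, fell, -3.65 by gavage and -2.53 intravenously, and so did Adh6, an alcohol dehydrogenase, -3.598 by gavage and -1.45 intravenously, and Dhrs3, a retinaldehyde reductase, -1.02 by gavage and -0.65 intravenously. The 4 rises, named after their values were seen, were Crabp2, a carrier of retinoic acid, with 2.38 by gavage and 1.96 intravenously, the retinoic acid hydroxylases Cyp26a1 with 0.94 by gavage and 1.06 intravenously and Cyp26b1 with 1.08 by gavage and 0.98 intravenously, and the receptor Rarg with 0.40 by gavage and 0.33 intravenously, whose intravenous change was -0.06 as the mean of its probes. Adh1 was matched by no probe and was not analysed here.

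Aldh18a1, which makes the precursor of proline from glutamate, rose in both experiments. It read -2.49, -2.42 and -2.44 on the water arrays and -0.58, -0.59 and -0.28 on the cisplatin arrays by gavage. The intravenous arrays read -2.41, -2.44 and -2.78 with water and -0.51, -0.55 and -1.04 with cisplatin. Groups stood well apart, and the change was 1.97 (SE 0.16, adjusted p = 5.32e-06) by gavage and 1.84 (SE 0.16, adjusted p = 1.36e-05) intravenously. The rise was smaller on a second probe of similar level, at 0.88 (adjusted p = 0.000379) by gavage and 0.93 (adjusted p = 0.00032) intravenously. Aldh4a1, which works in the opposite direction of proline breakdown, fell, -0.98 (SE 0.11, adjusted p = 4.49e-05) by gavage and -0.61 (SE 0.11, adjusted p = 0.00112) intravenously. The difference between the experiments was -0.12 (95% confidence interval -0.62 to 0.37, adjusted p = 0.793) for Aldh18a1.

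Aldh3a1, an enzyme of toxic aldehyde clearance that is induced through Ahr in other tissues, rose slightly on its brightest probe. By gavage Aldh3a1 read -0.27, -0.25 and -0.32 on the water arrays and 0.56, 0.27 and 0.77 on the cisplatin arrays, and intravenously -0.39, -0.37 and -0.28 on the water arrays and 0.41, 0.15 and -0.06 on the cisplatin arrays. The groups did not overlap, with changes of 0.81 (SE 0.14, adjusted p = 0.0007) by gavage and 0.52 (SE 0.14, adjusted p = 0.0103) intravenously. A second probe did not pass, at -0.04 (adjusted p = 0.904) by gavage and -0.33 (adjusted p = 0.241) intravenously, and the mean of both probes ended the intravenous call, at 0.09 (adjusted p = 0.576). Aldh1l2, the mitochondrial formyltetrahydrofolate dehydrogenase, rose by gavage, from -3.98, -3.90 and -3.72 to -3.31, -3.01 and -2.48, a change of 0.94 (SE 0.20, adjusted p = 0.0024). A dimmer second probe of Aldh1l2 gave 0.99 (adjusted p = 0.0136) by gavage and 0.74 (adjusted p = 0.0508) intravenously. The difference between the water groups on that second probe was -0.13 (adjusted p = 0.881). The brightest probe already read -3.15, -2.94 and -3.25 on the intravenous water arrays. On the intravenous cisplatin arrays it read -3.40, -2.95 and -3.26, a change of -0.09 (SE 0.20, adjusted p = 0.704). On this brightest probe alone, the intravenous water level exceeded the gavage water level by 0.76 (adjusted p = 0.153), with no overlap between the water groups. Under a fixed slide block the gavage rise was 0.56 (adjusted p = 0.0826), and the mean of all probes turned the intravenous change to 0.32, spike-in scaling to 0.47.

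**Figure D2:**
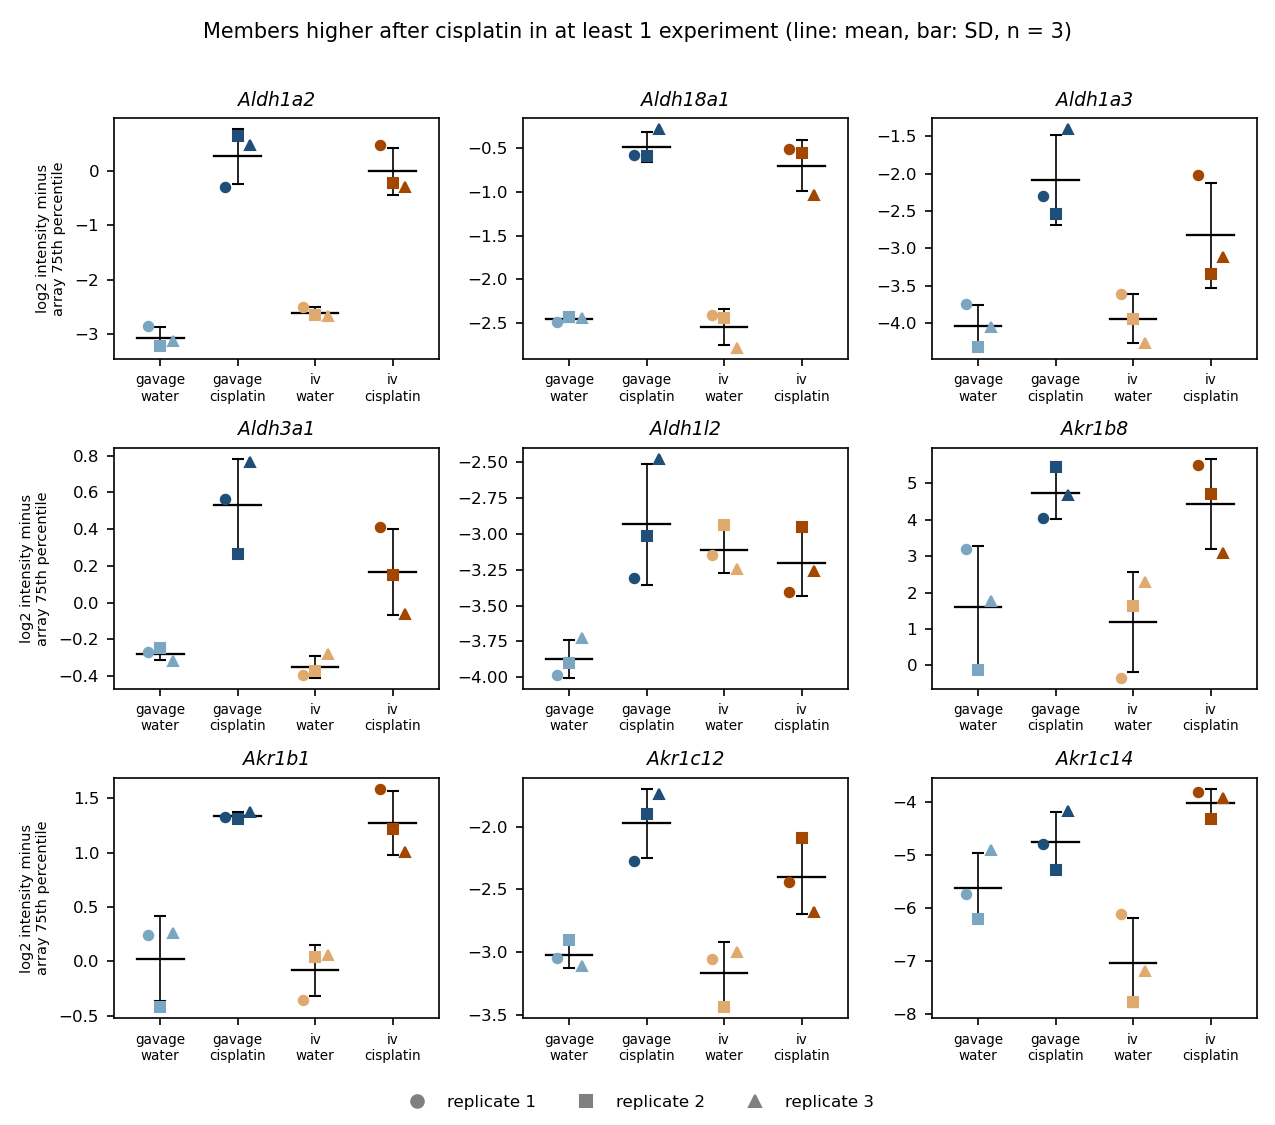
Values of 9 members on each array (y axis, log2 intensity minus the array's 75th percentile; x axis, the 4 groups of 3 animals), with the group mean as a line and the SD as a bar. For Aldh1a2, Aldh18a1, Akr1b1 and Akr1b8 all cisplatin animals lie above all water animals of the same experiment. The brightest probe of Aldh1l2 separates the treatments in the gavage animals and overlaps in the intravenous ones.

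Of the aldehyde dehydrogenases that fell, Aldh8a1, which acts in tryptophan breakdown through kynurenine, had the largest fall in both experiments. Its gavage arrays read 3.06, 3.07 and 2.97 on the water arrays and 0.01, -0.08 and -0.78 on the cisplatin arrays. Intravenously Aldh8a1 read 3.01, 2.94 and 2.92 on the water arrays and -0.13, 0.94 and 1.38 on the cisplatin arrays. No cisplatin array reached a water array, and the change was -3.32 (SE 0.33, adjusted p = 1.93e-05) by gavage and -2.23 (SE 0.33, adjusted p = 0.000312) intravenously. Aldh6a1, the methylmalonate semialdehyde dehydrogenase of valine and thymine breakdown, read 1.87, 1.84 and 1.93 on the water arrays and -0.73, -0.41 and -1.14 on the cisplatin arrays by gavage. Intravenously it read 1.98, 2.01 and 1.92 on the water arrays and -0.48, 0.42 and 0.63 on the cisplatin arrays. The water arrays of both experiments were close together, and the falls were -2.64 (SE 0.26, adjusted p = 1.85e-05) by gavage and -1.78 (SE 0.26, adjusted p = 0.000292) intravenously.

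Aldh2, the mitochondrial enzyme of acetaldehyde oxidation, read 6.12, 6.12 and 6.11 on the water arrays and 4.64, 4.56 and 4.27 on the cisplatin arrays by gavage. Intravenously its values were 6.09, 6.14 and 5.95 on the water arrays and 4.83, 4.87 and 5.16 on the cisplatin arrays. The fall was -1.63 (SE 0.12, adjusted p = 3.37e-06) by gavage and -1.11 (SE 0.12, adjusted p = 4.97e-05) intravenously. Aldh9a1, which acts in carnitine synthesis, read 6.36, 6.35 and 6.36 on the water arrays and 4.44, 4.80 and 4.33 on the cisplatin arrays by gavage and 6.52, 6.39 and 6.31 on the water arrays and 4.59, 5.06 and 5.39 on the cisplatin arrays intravenously. It fell with no overlap, -1.83 (SE 0.19, adjusted p = 2.14e-05) by gavage and -1.40 (SE 0.19, adjusted p = 0.000162) intravenously. Aldh1l1, the cytosolic formyltetrahydrofolate dehydrogenase, read 4.32, 4.43 and 4.27 on the water arrays and 2.62, 2.86 and 2.33 on the cisplatin arrays by gavage. Intravenously it read 4.34, 4.22 and 4.11 on the water arrays and 2.91, 3.40 and 3.67 on the cisplatin arrays. The falls of Aldh1l1 were -1.74 (SE 0.19, adjusted p = 3.22e-05) by gavage and -0.90 (SE 0.19, adjusted p = 0.00241) intravenously, and the intravenous one did not pass with spike-in scaling, at -0.34 (adjusted p = 0.221).

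Aldh1b1, a mitochondrial relative of Aldh2, fell in both experiments, with values that scattered among cisplatin animals. Gavage values were 0.55, 0.28 and 0.41 on the water arrays and -0.80, -2.01 and -1.69 on the cisplatin arrays. Intravenous values of Aldh1b1 were 0.94, 0.99 and 0.80 on the water arrays and -1.94, -0.04 and -1.06 on the cisplatin arrays. The change was -1.91 (SE 0.42, adjusted p = 0.003) by gavage and -1.92 (SE 0.42, adjusted p = 0.00319) intravenously. It was -1.21 (adjusted p = 0.0951) by gavage under a fixed slide block, and -1.29 as the mean of its probes. Aldh7a1, of lysine breakdown, had changes of -1.74 by gavage and -1.06 intravenously, and Aldh16a1 of -0.98 and -0.86, all past the test. Aldh3a2, the fatty aldehyde dehydrogenase, and Aldh3b1 passed in neither, with changes between -0.03 and 0.40. With spike-in scaling the intravenous change of Aldh7a1 was -0.50 (adjusted p = 0.0764) and those of Aldh16a1 were -0.31 (adjusted p = 0.096) by gavage and -0.30 (adjusted p = 0.122) intravenously. Aldh3a2 passed intravenously without intravenous cisplatin replicate 2, at 0.31 (adjusted p = 0.0468), and with quantile normalization, at 0.36 (adjusted p = 0.0223). Both changes of Aldh3a2 and Aldh3b1 passed upward with spike-in scaling, at 0.64 to 1.02.

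**Figure D3:**
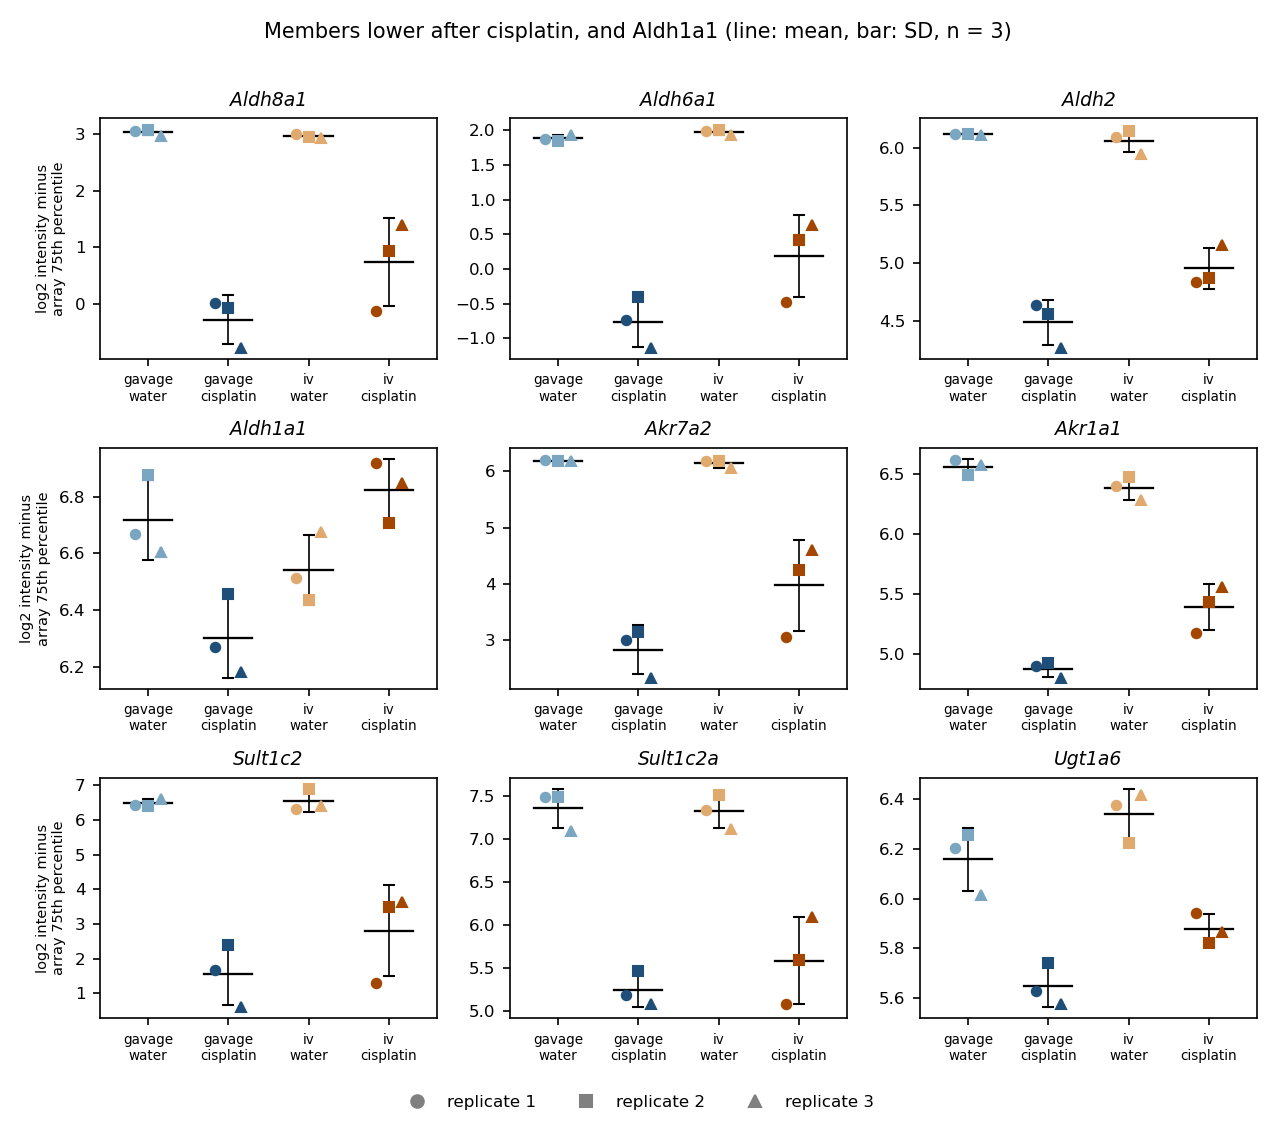
Values of 9 members on each array (y axis, log2 intensity minus the array's 75th percentile; x axis, the 4 groups of 3 animals), with the group mean as a line and the SD as a bar. Aldh8a1, Aldh6a1, Aldh2, Akr7a2, Akr1a1, Sult1c2, Sult1c2a and Ugt1a6 are lower on all cisplatin arrays of both experiments, and Aldh1a1 is lower by gavage and higher intravenously. With spike-in scaling the changes of Ugt1a6 and the gavage change of Aldh1a1 turn positive.

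Among the aldo-keto reductases, Akr1b1 and Akr1b8 rose in both experiments. Akr1b1, aldose reductase, which turns glucose into sorbitol, read 0.24, -0.42 and 0.26 on the water arrays and 1.33, 1.31 and 1.38 on the cisplatin arrays by gavage. Intravenously Akr1b1 read -0.36, 0.04 and 0.06 on the water arrays and 1.59, 1.22 and 1.01 on the cisplatin arrays. Its groups did not overlap, and the change was 1.31 (SE 0.21, adjusted p = 0.000354) by gavage and 1.36 (SE 0.21, adjusted p = 0.000365) intravenously. Akr1b8, a close relative, varied between water animals, with gavage values of 3.20, -0.14 and 1.77 on the water arrays and 4.04, 5.46 and 4.67 on the cisplatin arrays. Intravenously it read -0.33, 1.63 and 2.30 on the water arrays and 5.502, 4.71 and 3.08 on the cisplatin arrays. All cisplatin arrays still exceeded all water arrays of their experiment, with changes of 3.11 (SE 0.94, adjusted p = 0.016) by gavage and 3.23 (SE 0.94, adjusted p = 0.0139) intravenously. The Akr1b8 calls rest on single arrays. By gavage they ended without gavage water replicate 2, at 2.24 (adjusted p = 0.0615), without gavage cisplatin replicate 2, at 2.74 (adjusted p = 0.0553), and under a fixed slide block, at 2.43 (adjusted p = 0.176), and the change was 3.91 without gavage water replicate 1. Intravenously they ended without intravenous water replicate 1, at 2.47 (adjusted p = 0.055), and without intravenous cisplatin replicate 1, at 2.70 (adjusted p = 0.0533), and the change was 3.91 without intravenous cisplatin replicate 3.

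Their neighbour on chromosome 4, Akr1b10, moved the other way. It read 1.34, 0.46 and 0.51 on the water arrays and -3.12, -1.60 and -3.599 on the cisplatin arrays by gavage and fell, -3.54 (SE 0.49, adjusted p = 0.000158). Without gavage cisplatin replicate 2 the fall was -4.13. Intravenously Akr1b10 read -0.30, 0.33 and 0.35 on the water arrays and -1.56, -0.43 and -0.98 on the cisplatin arrays, which did not overlap but missed the threshold, -1.12 (SE 0.49, adjusted p = 0.0731). It passed there as the mean of its probes, at -1.06 (adjusted p = 0.0403), with only the 6 arrays compared, at -1.12 (adjusted p = 0.0311), and without gavage cisplatin replicate 2, at an adjusted p = 0.0197. In RefSeq's order on that chromosome, Akr1b1, Akr1b8, Akr1b10 and Akr1b7 follow each other among the members. Akr1b7, an aldose reductase-like protein known from the adrenal gland, gave no array well above background. The sequences of these genes are alike, and how much a probe of one reads transcripts of another was not tested.

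Of the other genes of the polyol pathway and of osmolyte handling, Sord, the sorbitol dehydrogenase that follows aldose reductase, fell, -1.89 by gavage and -1.50 intravenously. Khk, which phosphorylates fructose, fell, -4.16 by gavage and -2.77 intravenously, and so did the inositol transporter Slc5a3, -1.02 by gavage and -1.34 intravenously. Nfat5, the transcription factor of the response to high osmolarity, rose, 1.53 by gavage and 1.28 intravenously. Among all features 30.2% fell and 29.5% rose by gavage, and 32.6% fell and 26.1% rose intravenously. Of 6 tested genes in the polyol and osmolyte list 3 fell and 2 rose by gavage and 4 fell and 1 rose intravenously. With spike-in scaling 2 of the 6 fell and 2 rose by gavage, and 2 fell and 1 rose intravenously. The remaining ones among these were Slc6a6, a taurine transporter, which rose by gavage, 0.62, and had an intravenous change of -0.02, and the betaine transporter Slc6a12, which fell intravenously, -0.53, and had a gavage change of -0.41 that did not pass. Both changes of Slc6a12 turned positive with spike-in scaling, at 0.26 by gavage and 0.03 intravenously, and the intravenous change of Slc6a6 turned to 0.54.

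Akr1a1, aldehyde reductase, which in rats also makes the precursor of ascorbate from glucuronate, read 6.62, 6.49 and 6.58 on the water arrays and 4.90, 4.93 and 4.81 on the cisplatin arrays by gavage. Intravenously Akr1a1 read 6.40, 6.48 and 6.28 on the water arrays and 5.18, 5.44 and 5.56 on the cisplatin arrays. Replicates lay close together and the groups stood apart, with falls of -1.68 (SE 0.11, adjusted p = 1.48e-06) by gavage and -0.99 (SE 0.11, adjusted p = 4.47e-05) intravenously. The 2 reductases of aflatoxin dialdehyde, Akr7a2 and Akr7a3, fell as well. Akr7a2 read 6.19, 6.19 and 6.19 on the water arrays and 3.01, 3.15 and 2.34 on the cisplatin arrays by gavage and 6.19, 6.18 and 6.05 on the water arrays and 3.06, 4.25 and 4.60 on the cisplatin arrays intravenously. Its falls were -3.36 (SE 0.34, adjusted p = 2.1e-05) by gavage and -2.17 (SE 0.34, adjusted p = 0.000429) intravenously, without overlap. Akr7a3 read 7.34, 7.58 and 6.92 on the water arrays and 5.05, 5.15 and 3.26 on the cisplatin arrays by gavage and fell, -2.79 (SE 0.54, adjusted p = 0.00126), or -2.18 without gavage cisplatin replicate 3. Intravenously it read 7.61, 7.44 and 7.48 on the water arrays and 4.93, 6.60 and 6.55 on the cisplatin arrays, a fall of -1.48 (SE 0.54, adjusted p = 0.0359). That call ended without intravenous cisplatin replicate 1, at -0.93 (adjusted p = 0.131), and without intravenous water replicate 1, 2 or 3, at an adjusted p = 0.0835, 0.0702 and 0.0724. It ended too with quantile normalization, at -1.32 (adjusted p = 0.0602), with spike-in scaling, at -0.92 (adjusted p = 0.168), and with no filter on dim probes, at an adjusted p = 0.0525.

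The Akr1c genes, a cluster of hydroxysteroid dehydrogenases on chromosome 17, held both rises and falls. In RefSeq's order along the chromosome the tested ones run Akr1c2, Akr1c1, Akr1c12l1, Akr1c13, Akr1c19, Akr1c12, Akr1c14 and Akr1c15. Akr1c12 and Akr1c14 rose in at least 1 experiment, and Akr1c2, Akr1c1, Akr1c12l1, Akr1c13, Akr1c19 and Akr1c15 fell by gavage. Akr1c1 read 6.32, 5.76 and 6.63 on the water arrays and 1.15, 2.25 and 1.06 on the cisplatin arrays by gavage, a fall of -4.75 (SE 0.57, adjusted p = 6.08e-05). Intravenously its values were 4.78, 5.87 and 4.56 on the water arrays and 2.46, 3.70 and 4.73 on the cisplatin arrays, which overlapped, and the change of -1.44 (SE 0.57, adjusted p = 0.0504) missed the threshold. Without intravenous cisplatin replicate 3 it was -1.99 (adjusted p = 0.0111) and without intravenous water replicate 3 -1.69 (adjusted p = 0.04996). It also passed without gavage cisplatin replicate 2, at an adjusted p = 0.0463, with normexp, at -1.33 (adjusted p = 0.0483), and with a random slide block, at -1.44 (adjusted p = 0.0462).

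Akr1c12l1 read 2.79, 3.03 and 2.29 on the water arrays and -1.17, -0.55 and -2.89 on the cisplatin arrays by gavage and 3.20, 3.16 and 2.80 on the water arrays and -1.90, 0.89 and 1.28 on the cisplatin arrays intravenously. It fell without overlap, -4.24 (SE 0.79, adjusted p = 0.00102) by gavage and -2.96 (SE 0.79, adjusted p = 0.00874) intravenously. The gavage fall was -3.56 without gavage cisplatin replicate 3, and the intravenous fall -1.97 without intravenous cisplatin replicate 1 and -3.56 without replicate 3. Akr1c13 read 3.75, 4.11 and 3.44 on the water arrays and 0.27, 1.33 and -0.57 on the cisplatin arrays by gavage and 3.76, 4.34 and 3.37 on the water arrays and -0.09, 1.46 and 2.80 on the cisplatin arrays intravenously. Its cisplatin animals scattered in the same way, and the falls were -3.42 (SE 0.67, adjusted p = 0.00137) by gavage and -2.43 (SE 0.67, adjusted p = 0.0102) intravenously. The intravenous fall of Akr1c13 was -1.69 without intravenous cisplatin replicate 1 and -3.14 without replicate 3. A dimmer probe of Akr1c13 did not pass intravenously, at -1.56 (adjusted p = 0.128).

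Akr1c12, a neighbour of these, rose in both experiments. By gavage Akr1c12 read -3.05, -2.90 and -3.11 on the water arrays and -2.28, -1.90 and -1.74 on the cisplatin arrays. Intravenously it read -3.05, -3.44 and -2.99 on the water arrays and -2.44, -2.09 and -2.68 on the cisplatin arrays. The changes were 1.05 (SE 0.19, adjusted p = 0.000751) by gavage and 0.76 (SE 0.19, adjusted p = 0.0056) intravenously, with no overlap, and a second probe did not pass, at 0.59 (adjusted p = 0.1) and 0.36 (adjusted p = 0.298). Akr1c14, the hydroxysteroid dehydrogenase of rat liver, was dim. It was well above background on 1 gavage water array, 0 intravenous water arrays and all 6 cisplatin arrays. It thus entered the test only through the cisplatin groups, in which it is higher, and its p-value gives no support of its own. Akr1c14 is nevertheless counted among the intravenous rises. Its intravenous values were -6.12, -7.79 and -7.21 on the water arrays and -3.82, -4.32 and -3.93 on the cisplatin arrays, a rise of 3.01 (SE 0.45, adjusted p = 0.00034), and since the water arrays gave only a bound, intravenous cisplatin was at least 2.89-fold higher. Normexp background correction gave 0.54 (adjusted p = 0.00772). By gavage Akr1c14 read -5.75, -6.22 and -4.91 on the water arrays and -4.79, -5.29 and -4.19 on the cisplatin arrays, overlapping, with a change of 0.87 (SE 0.45, adjusted p = 0.122), or 1.23 (adjusted p = 0.0489) without gavage water replicate 3 and -0.07 with normexp. Akr1c19 fell by 1.40 by gavage and by 0.95 intravenously on the log2 scale, the latter call ending with spike-in scaling, at -0.39 (adjusted p = 0.169). Akr1c15 fell by gavage, -1.28 (SE 0.37, adjusted p = 0.0123), although its groups overlapped, and its intravenous change was 0.23 (SE 0.37, adjusted p = 0.611). With only the 6 gavage arrays in the fit it was -1.28 (adjusted p = 0.0536), and with spike-in scaling -0.61 (adjusted p = 0.186). Akr1e2 fell in both experiments, -1.61 (SE 0.13, adjusted p = 6.29e-06) by gavage and -1.03 (SE 0.13, adjusted p = 0.000137) intravenously.

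Akr1c2 was either near the array's 75th percentile or close to background in single animals. It read 0.67, 0.56 and 1.06 on the water arrays and -7.68, -8.08 and -1.77 on the cisplatin arrays by gavage and -7.71, 0.60 and -6.88 on the water arrays and -0.48, -7.06 and 0.36 on the cisplatin arrays intravenously. It was well above background on all 3 gavage water arrays, 1 gavage cisplatin array, 1 intravenous water array and 2 intravenous cisplatin arrays. Its gavage cisplatin mean thus rests on 1 array above background, and the fitted change has no exact size. Akr1c2 entered the test through the gavage water group alone, in which it is higher, and its p-value gives no support of its own. It is nevertheless counted among the gavage falls. The gavage fall of -6.61 (SE 2.57, adjusted p = 0.0471) was -4.25 (adjusted p = 0.0158) with normexp. It ended without any 1 gavage water array, at adjusted p = 0.0888 to 0.0991, without gavage cisplatin replicate 1, at -5.69 (adjusted p = 0.132), or replicate 2, at -5.49 (adjusted p = 0.139). It also ended without intravenous water replicate 3, at an adjusted p = 0.0533, and without intravenous cisplatin replicate 1, at 0.0549, and was -8.64 (adjusted p = 0.0207) without gavage cisplatin replicate 3. Quantile normalization, spike-in scaling, no filter on dim probes and a fixed slide block ended it too, at an adjusted p = 0.0516, 0.0518, 0.0659 and 0.094. The intravenous change was 2.27 (SE 2.57, adjusted p = 0.469), and high and low animals occurred in both intravenous groups.

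Of the 4 tested Ugt1a enzymes, which conjugate bilirubin and phenols, 3 fell in both experiments. Ugt1a1, the bilirubin enzyme, read 1.83, 2.10 and 1.56 on the water arrays and 1.39, 1.32 and 1.19 on the cisplatin arrays by gavage and 2.37, 1.96 and 2.30 on the water arrays and 1.66, 1.67 and 1.77 on the cisplatin arrays intravenously. Ugt1a6, a phenol enzyme, read 6.20, 6.26 and 6.01 on the water arrays and 5.63, 5.74 and 5.58 on the cisplatin arrays by gavage. Intravenously Ugt1a6 read 6.38, 6.22 and 6.42 on the water arrays and 5.94, 5.82 and 5.87 on the cisplatin arrays. Ugt1a2 read 4.39, 4.53 and 4.20 on the water arrays and 3.87, 3.99 and 3.88 on the cisplatin arrays by gavage and 4.70, 4.51 and 4.76 on the water arrays and 4.28, 4.12 and 4.20 on the cisplatin arrays intravenously. For these 3 the cisplatin arrays lay below the water arrays of their experiment. The falls were -0.53 (SE 0.15, adjusted p = 0.0102) by gavage and -0.51 (SE 0.15, adjusted p = 0.0131) intravenously for Ugt1a1, -0.51 (SE 0.09, adjusted p = 0.000918) by gavage and -0.46 (SE 0.09, adjusted p = 0.0019) intravenously for Ugt1a6 and -0.46 (SE 0.11, adjusted p = 0.00344) by gavage and -0.46 (SE 0.11, adjusted p = 0.00408) intravenously for Ugt1a2. With spike-in scaling each of these 6 changes turned positive and did not pass, at 0.14 and 0.05 for Ugt1a1, 0.16 and 0.10 for Ugt1a6 and 0.20 and 0.10 for Ugt1a2. Without intravenous water replicate 1 the intravenous fall of Ugt1a1 was -0.43 (adjusted p = 0.0523), and under a fixed slide block its gavage fall was -0.45 (adjusted p = 0.116). Quantile normalization ended the gavage call of Ugt1a6, at -0.23 (adjusted p = 0.0766), and both calls of Ugt1a2, at -0.23 (adjusted p = 0.0854) and -0.25 (adjusted p = 0.0703). In the RefSeq table the 4 measured Ugt1a genes end at the same base of chromosome 9, so probes near that end can read more than 1 of them. A dimmer probe of Ugt1a6 gave -1.29 (adjusted p = 0.000445) by gavage and -0.63 (adjusted p = 0.0251) intravenously. The second probe of Ugt1a2 gave -0.44 (adjusted p = 0.0015) by gavage and did not pass intravenously, at -0.16 (adjusted p = 0.136). Ugt1a9 passed in neither experiment, at 0.25 and 0.12, and rose by gavage with spike-in scaling, at 0.92 (adjusted p = 0.0392).

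Of the 4 tested Ugt2b enzymes, which conjugate steroids and drugs, 3 fell by gavage, and 0 passed intravenously or in the test of the difference between experiments. Ugt2b15 read 0.52, 0.71 and 1.39 on the water arrays and -1.71, -0.80 and -4.39 on the cisplatin arrays by gavage, Ugt2b37 2.78, 2.93 and 3.59 on the water arrays and 0.51, 1.84 and -1.89 on the cisplatin arrays, and Ugt2b35 4.76, 4.95 and 5.46 on the water arrays and 2.50, 3.54 and -0.20 on the cisplatin arrays. Gavage cisplatin replicate 3 was the lowest of all 12 arrays for each. Their falls were -3.17 (SE 0.85, adjusted p = 0.00855), -2.94 (SE 0.88, adjusted p = 0.0147) and -3.11 (SE 0.87, adjusted p = 0.0105). Without that animal they were -2.13 (adjusted p = 0.0189), -1.92 (adjusted p = 0.044) and -2.04 (adjusted p = 0.0237), and without gavage cisplatin replicate 2 -3.93, -3.79 and -3.90. Under a fixed slide block none of the 3 passed, at -2.59 (adjusted p = 0.117), -2.59 (adjusted p = 0.132) and -2.55 (adjusted p = 0.129).

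Intravenously Ugt2b15 read -0.29, 1.07 and -0.26 on the water arrays and -1.45, 0.38 and 0.43 on the cisplatin arrays, Ugt2b37 2.08, 3.67 and 2.27 on the water arrays and 0.74, 2.61 and 2.79 on the cisplatin arrays, and Ugt2b35 3.89, 5.27 and 4.003 on the water arrays and 2.76, 4.63 and 4.70 on the cisplatin arrays. Water and cisplatin arrays overlapped for each, with changes of -0.38 (SE 0.85, adjusted p = 0.716), -0.63 (SE 0.88, adjusted p = 0.556) and -0.36 (SE 0.87, adjusted p = 0.737). The difference between the experiments was 2.79 (95% confidence interval 0.11 to 5.46, adjusted p = 0.24) for Ugt2b15, 2.31 (95% confidence interval -0.45 to 5.07, adjusted p = 0.335) for Ugt2b37 and 2.75 (95% confidence interval 0.02 to 5.48, adjusted p = 0.255) for Ugt2b35, intervals too wide for a call. The 3 genes ranked the 3 animals of a group in the same order in each of the 4 groups. In the RefSeq table they lie side by side among the members on chromosome 14, in the order Ugt2b15, Ugt2b37, Ugt2b35, followed by Ugt2b7. Ugt2b7 ranked the gavage cisplatin animals as these 3 did and the gavage water animals in the reverse order. It read -0.54, -1.06 and -1.97 on the water arrays and 0.34, 1.14 and -2.35 on the cisplatin arrays by gavage and 0.08, -1.81 and 0.65 on the water arrays and -0.04, 3.56 and 2.73 on the cisplatin arrays intravenously. Neither change passed, 0.90 (SE 1.097, adjusted p = 0.501) by gavage and 2.44 (SE 1.097, adjusted p = 0.0788) intravenously, although the intravenous one was 3.50 (adjusted p = 0.018) without intravenous cisplatin replicate 1 and passed without gavage cisplatin replicate 3, at an adjusted p = 0.0478, and with spike-in scaling, at 3.00 (adjusted p = 0.0367). These genes are near-identical in parts, and how far their probes share transcripts was not tested. Ugt8, which makes galactosylceramide, read -4.08, -4.12 and -4.07 on the water arrays and -4.11, -4.21 and -4.13 on the cisplatin arrays by gavage and -4.45, -3.93 and -4.57 on the water arrays and -4.24, -5.41 and -4.15 on the cisplatin arrays intravenously and did not pass, -0.06 (SE 0.29, adjusted p = 0.866) by gavage and -0.28 (SE 0.29, adjusted p = 0.421) intravenously. A dimmer second probe of Ugt8 gave -0.23 (adjusted p = 0.326) by gavage and passed intravenously, at -0.60 (adjusted p = 0.0208).

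**Figure D4:**
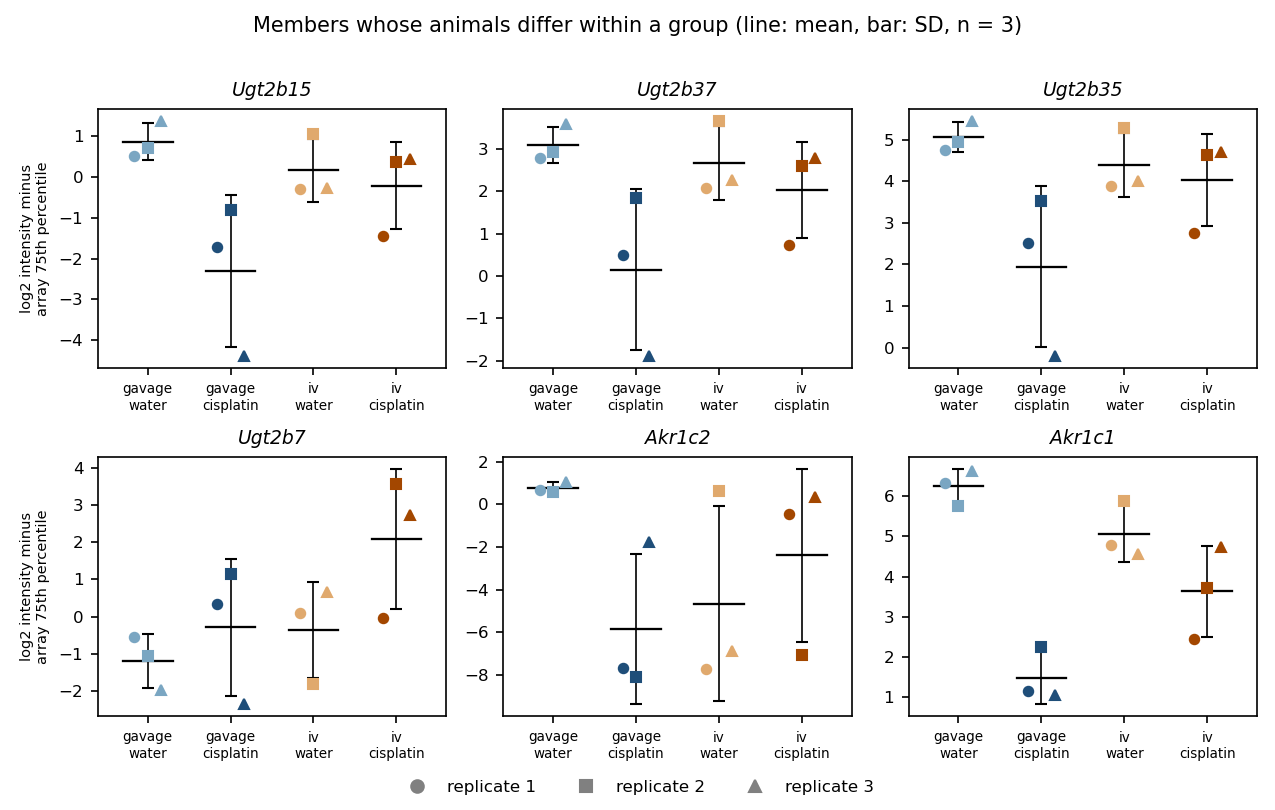
Values of 6 members on each array (y axis, log2 intensity minus the array's 75th percentile; x axis, the 4 groups), with a marker shape for each replicate number, the group mean as a line and the SD as a bar. Ugt2b15, Ugt2b37 and Ugt2b35 place the animals of each group in the same order, and Akr1c2 lies near -8 to -7 in some animals and above -2 in others of the same group.

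Among the sulfotransferases, Sult1c2, of a branch that acts on phenols and arylamines, had the largest fall in both experiments. Sult1c2 read 6.44, 6.40 and 6.62 on the water arrays and 1.67, 2.38 and 0.59 on the cisplatin arrays by gavage. Intravenously Sult1c2 read 6.30, 6.90 and 6.40 on the water arrays and 1.29, 3.48 and 3.64 on the cisplatin arrays. Gavage cisplatin was 30.7-fold lower and intravenous cisplatin 13.3-fold lower, log2 changes of -4.94 (SE 0.59, adjusted p = 6.28e-05) by gavage and -3.73 (SE 0.59, adjusted p = 0.000476) intravenously. Without intravenous cisplatin replicate 1 the latter was -2.98. The 2 other probes of Sult1c2 gave -2.74 (adjusted p = 1.59e-05) and -5.07 (adjusted p = 8.12e-05) by gavage and -2.02 (adjusted p = 0.000147) and -3.79 (adjusted p = 0.000648) intravenously. Sult1c2a read 7.49, 7.48 and 7.09 on the water arrays and 5.18, 5.47 and 5.08 on the cisplatin arrays by gavage and 7.33, 7.51 and 7.11 on the water arrays and 5.08, 5.59 and 6.09 on the cisplatin arrays intravenously. Its falls were -2.11 (SE 0.24, adjusted p = 3.87e-05) by gavage and -1.73 (SE 0.24, adjusted p = 0.000183) intravenously, with no overlap. Sult1c3 was dimmer and scattered among water animals, at -2.14, 0.17 and -2.01 on the water arrays and -4.11, -4.16 and -4.43 on the cisplatin arrays by gavage, a fall of -2.90 (SE 0.73, adjusted p = 0.00625). Without gavage water replicate 2 it was -2.15 (adjusted p = 0.0212), and under a fixed slide block -2.78 (adjusted p = 0.0643). Intravenously Sult1c3 read -1.12, -2.99 and -1.11 on the water arrays and -4.14, -2.10 and -3.68 on the cisplatin arrays, which overlapped, and did not pass, -1.57 (SE 0.73, adjusted p = 0.0892), except without intravenous water replicate 2, at -2.20 (adjusted p = 0.0313), without intravenous cisplatin replicate 2, at -2.17 (adjusted p = 0.033), and without gavage water replicate 2, at an adjusted p = 0.0457.

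Sult1b1, which sulfates thyroid hormone and phenols, read 4.08, 4.22 and 3.83 on the water arrays and 2.57, 1.98 and 1.01 on the cisplatin arrays by gavage and 4.37, 3.53 and 4.73 on the water arrays and 2.12, 3.32 and 2.85 on the cisplatin arrays intravenously. It fell in both, -2.19 (SE 0.44, adjusted p = 0.00156) by gavage and -1.44 (SE 0.44, adjusted p = 0.0164) intravenously. The intravenous call ended without intravenous water replicate 3, at -1.18 (adjusted p = 0.0618), without intravenous cisplatin replicate 1, at -1.12 (adjusted p = 0.0635), and with spike-in scaling, at -0.88 (adjusted p = 0.112), and the gavage call under a fixed slide block, at -1.47 (adjusted p = 0.0558). Sult2b1, which sulfates cholesterol and pregnenolone, read -0.76, -0.75 and -0.88 on the water arrays and -1.44, -1.62 and -2.84 on the cisplatin arrays by gavage. Intravenously Sult2b1 read -0.09, -0.32 and -0.34 on the water arrays and -1.90, -1.97 and -1.55 on the cisplatin arrays. The falls were -1.16 (SE 0.30, adjusted p = 0.00709) by gavage and -1.55 (SE 0.30, adjusted p = 0.00153) intravenously, and it was 1 of the 2 members with a larger fall intravenously. A second probe of Sult2b1, at a mean of -7.11, did not pass the filter on dim probes. It was well above background on 1 gavage cisplatin array alone, so the mean of both probes includes a signal near background. The gavage call ended as the mean of its probes, at -0.51 (adjusted p = 0.0511), under a fixed slide block, at -0.64 (adjusted p = 0.191), and with spike-in scaling, at -0.50 (adjusted p = 0.174). Sult1a1, the main phenol sulfotransferase, read 2.69, 3.16 and 2.90 on the water arrays and 3.44, 2.70 and 3.597 on the cisplatin arrays by gavage and 3.24, 3.03 and 2.68 on the water arrays and 3.35, 2.92 and 3.53 on the cisplatin arrays intravenously. Treated and water animals overlapped, with changes of 0.33 (SE 0.25, adjusted p = 0.289) by gavage and 0.28 (SE 0.25, adjusted p = 0.363) intravenously. Without gavage cisplatin replicate 2 the gavage change was 0.60 (adjusted p = 0.0432), and with spike-in scaling both passed, at 1.00 (adjusted p = 0.00186) and 0.84 (adjusted p = 0.00621). Sult4a1, known from brain, passed in neither, at 0.50 and 0.88.

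Genes that supply the cosubstrates of conjugation, or undo it, mostly fell. Of 10 tested, 8 fell and 1 rose in each experiment. The shares of all features were 30.2% falling and 29.5% rising by gavage, and 32.6% falling and 26.1% rising intravenously. Ugdh, which makes UDP-glucuronic acid, had changes of -1.29 (SE 0.08, adjusted p = 1.38e-06) by gavage and -0.64 (SE 0.08, adjusted p = 0.000106) intravenously, and its fall was larger by gavage, with a difference of 0.65 (adjusted p = 0.041). That adjusted p ranged from 0.00561 to 0.184 over 20 alternatives, 6 of which passed. Without 1 array the difference did not pass in 10 of the 12 fits, all but those without gavage cisplatin replicate 1 or intravenous cisplatin replicate 1. Papss2, which makes the sulfate donor, fell, -1.41 by gavage and -1.17 intravenously, as did the sulfate transporter Slc26a1, -2.69 by gavage and -1.78 intravenously, and Arsa, a lysosomal arylsulfatase, -1.41 by gavage and -0.91 intravenously. Gusb, the beta-glucuronidase that removes glucuronic acid, rose, 0.52 by gavage and 0.69 intravenously. With spike-in scaling 2 of the 10 rose in each experiment, and 6 fell by gavage and 2 intravenously.

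Other genes read in the same way give the setting of these families. Their counts stand beside 30.2% of all features falling and 29.5% rising by gavage, and 32.6% falling and 26.1% rising intravenously. Of 19 tested Nrf2 target genes outside them, 10 rose and 4 fell by gavage and 12 rose and 4 fell intravenously, against 15 and 1 by gavage and 15 and 2 intravenously with spike-in scaling. Nqo1, a quinone reductase, rose, 2.06 by gavage and 2.09 intravenously, as did Srxn1, which repairs peroxiredoxins, 3.51 by gavage and 3.38 intravenously, the exporter of conjugates Abcc3, 0.65 by gavage and 1.22 intravenously, and Nfe2l2, which encodes Nrf2, 0.41 by gavage and 0.83 intravenously. The falls, named after their values were seen, were Gclc, the catalytic subunit of glutathione synthesis, -2.57 by gavage and -2.25 intravenously, the malic enzyme Me1, -0.49 by gavage and -0.85 intravenously, the transaldolase Taldo1, -0.26 by gavage and -0.45 intravenously, Keap1, the repressor of Nrf2, by gavage, -0.49, and Gclm, the partner of Gclc, intravenously, -3.36. With spike-in scaling the gavage changes of Keap1 (0.17), Gclm (0.14), Me1 (0.18) and Taldo1 (0.41) and the intravenous changes of Keap1 (0.48) and Taldo1 (0.11) were positive. Of 12 tested receptors and hepatic-type factors, 7 fell and 2 rose by gavage and 6 fell and 2 rose intravenously, while with spike-in scaling 4 fell and 4 rose by gavage and 3 fell and 5 rose intravenously. Hnf4a, a transcription factor of proximal tubule and liver enzymes, fell, -3.20 by gavage and -1.83 intravenously, and so did Cebpa, -2.30 by gavage and -1.02 intravenously. The rises were Cyp1b1, a target of Ahr, in both experiments, Cebpb by gavage, 0.95, and Ahr intravenously, 0.53. The last 2 were named after their values were seen. The water arrays of Cyp1b1 were not well above background, and it was at least 15.8-fold higher by gavage and at least 10.1-fold higher intravenously. Cyp1b1 thus entered the test only through cisplatin groups, in which it is higher, and its p-value gives no support of its own. It is nevertheless counted among the rises of this list. Of 10 other conjugating enzymes 4 fell and 3 rose in each experiment, and with spike-in scaling 4 fell and 5 rose by gavage and 3 fell and 4 rose intravenously. The falls were Glyat, Acsm2 and Acsm3, of glycine conjugation and fatty acid activation, and Gsta1, a glutathione transferase, from -4.04 to -2.45 by gavage and from -2.28 to -1.36 intravenously. The rises were Nnmt, which methylates nicotinamide, 3.69 by gavage and 2.98 intravenously, and the glutathione transferases Gstm1, 1.88 by gavage and 2.15 intravenously, and Gstp1, 0.97 by gavage and 1.01 intravenously.

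The 2 experiments were compared directly by the difference of their effects. Of 48 members 0 passed by limma, against 1.19% of all features and 0.484% of named genes, and 18 had an unadjusted p under 0.05. The lowest adjusted p was that of Akr1a1, with a difference of 0.69 (95% confidence interval 0.36 to 1.02, adjusted p = 0.0548), and Aldh1a1 followed with 0.70 (95% confidence interval 0.35 to 1.05, adjusted p = 0.0627). The alternatives gave Akr1a1 an adjusted p of 0.0215 to 0.214 and passed it in 4 of 20, without gavage cisplatin replicate 1, without intravenous cisplatin replicate 1, with normexp and with the slide as a random block. Among members well above background on all 12 arrays, the difference was 3.31 (95% confidence interval 1.52 to 5.10, adjusted p = 0.0754) for Akr1c1 and 2.42 (95% confidence interval 0.88 to 3.97, adjusted p = 0.11) for Akr1b10. A dimmer second probe of Akr1b10, which did not stand for the gene, passed in limma's test of the difference, at 2.73 (adjusted p = 0.0467). No difference is given for Akr1c14 and Akr1c2, which were near background in whole groups or single animals. For Aldh1b1 the difference was -0.01 (95% confidence interval -1.35 to 1.32, adjusted p = 0.992) and for Akr1b1 0.04 (95% confidence interval -0.61 to 0.69, adjusted p = 0.95), intervals that still allow a difference in either direction. Between the water groups 0 members passed by limma, against 0% of all features, and 6 had an unadjusted p under 0.05, the lowest adjusted p being 0.153 for Aldh1l2. A second probe of that gene gave a water difference of -0.13 (adjusted p = 0.881). Without intravenous cisplatin replicate 1 the difference passed for 6 members, Akr1a1, Akr1c1, Akr7a2, Aldh1l1, Aldh6a1 and Aldh8a1, and without gavage cisplatin replicate 1 for 3, Akr1a1, Aldh1a1 and Aldh1l2. Without the latter array 1 member, Aldh1l2, also passed between the water groups, at an adjusted p = 0.0466.

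The 14 members that were not tested had no group in which all 3 arrays were well above background. They were Akr1b7, Akr1c3 and Akr1d1 among the reductases, Sult1d1, Sult1e1, Sult2a1, Sult2a2, Sult2a6 and Sult6b1 among the sulfotransferases, and Ugt2a1, Ugt2a3, Ugt2b, Ugt2b1 and Ugt2b10 among the glucuronosyltransferases. The Sult2a enzymes sulfate steroids in liver, and Sult1e1 sulfates oestrogens. For 13 of the 14 no array was well above background, and Sult6b1 was so on 1. Of the 26 members with several probes above the filter, 0 had probes past the test in opposite directions. All probes of a gene gave the same call for 23 of the 26 by gavage and 20 intravenously. The exceptions by gavage were Akr1c12, Aldh1a1 and Aldh3a1, and intravenously Akr1b10, Akr1c12, Akr1c13, Aldh3a1, Ugt1a2 and Ugt8.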

How the data were processed

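Total RNA of renal cortex from 12 rats (4 groups of 3) was read on 1-colour arrays. The authors extracted spots with Feature Extraction 10.7 (Agilent), as the submitters' processing notes give it. The deposited processed intensity is background-subtracted and not normalized between arrays, per the file headers; local median intensities served normexp (offset 50). The authors' deposited value table holds a linear ratio, each processed intensity over its array's 75th percentile, and was an alternative. Its column medians were 0.109 to 0.121.

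Probes were named by accession from a RefSeq table of GRCr8; the array design refers to another assembly, so GRCr8 served for names, gene order and promoter windows, not for probe positions. Of 61537 probes 28206 matched 1 symbol, 33331 none and 0 several. The 1439 control spots and 82 uneven spots were left out, and 0 spots were saturated. Between 66.1% and 73.9% of probes per array were well above background. A feature was tested if every array of some group was well above background (32215 of 45433). The 4 group means were fitted by limma (version 3.58.1, R 4.3.3), with 8 residual and 2.09 prior degrees of freedom, two-sided, and the fit was tested on simulated data. Folds of genes not above background in a group are bounds against the lowest signal well above background. The precision is limited by the 3 arrays per group. The p-values set each change against the spread between arrays within a group, pooled over the 4 groups. In the intravenous experiment they cannot separate treatment from slide.

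Described with values were the 4 largest rises and falls per family past the test and a fixed set of members. The rule also took up to 4 genes of each related list by smallest p, with Nqo1, Ugdh, Papss2, Adh1 and Sord. Members, lists and tests were chosen with earlier results of these data known. Some genes of the related lists are not reported here. Alternatives were quantile and spike-in scaling, normexp, no filter, the mean of probes, the deposited table, slide and replicate blocks, only the 6 arrays compared, and each array left out.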

Additional observations from a re-analysis of the deposited data

Results flagged for a closer look

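Aldh1a1 stood out because its gavage and intravenous cisplatin animals lay on opposite sides of the separate animals given water. All 3 gavage cisplatin arrays lay below all 3 gavage water arrays, and all 3 intravenous cisplatin arrays lay above all 3 intravenous water arrays. Such groups without overlap, in either direction, were found for 67.2% of all features by gavage and 66.2% intravenously. How many features were separated in opposite directions was not counted. The difference of the effects, intravenous minus gavage, was 0.70 (95% confidence interval 0.35 to 1.05, adjusted p = 0.0627) in limma's test, which missed the threshold. The opposite directions depend on the scaling. With spike-in scaling the change was 0.25 (adjusted p = 0.201) by gavage and 0.84 (adjusted p = 0.00145) intravenously, both upward, and quantile normalization gave -0.19 (adjusted p = 0.222) by gavage. Over 20 alternatives the difference was 0.43 to 0.77, with an adjusted p of 0.0474 to 0.272, and it passed in 1 of them. A second probe of the gene gave -0.20 (adjusted p = 0.212) by gavage and -0.04 (adjusted p = 0.801) intravenously. Groups of 3 were not examined for single outlying animals.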

How the results depend on the processing

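Of 1591 values of the 37 tested members described, each under an alternative, 1495 kept their direction and their side of the threshold. With the direction kept, 49 lost the call and 25 gained one, and 22 changed sign whether or not the call changed. Among the sign changes, the calls of Aldh1a1 by gavage and of Ugt1a1, Ugt1a2 and Ugt1a6 in both experiments also ended, with spike-in scaling. With spike-in scaling 13 members rose and 23 fell by gavage, and 14 rose and 13 fell intravenously. Of all 32215 features, 20049 rose and 3103 fell by gavage with that scaling, and 17052 rose and 3034 fell intravenously. The number of members whose effects differed between experiments was 1 with normexp and 1 with the slide as a random block, and 0 to 6 when 1 array was left out. Between the water groups it was 2 with only the 6 arrays compared (Aldh1l2 and Sult2b1), and 0 to 1 when 1 array was left out. Leaving out 1 array gave 38 to 40 called members by gavage (7 to 9 up, 31 to 32 down) and 28 to 34 intravenously (7 to 10 up, 21 to 25 down).

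Signs changed with spike-in scaling for Aldh1a1 by gavage (0.25), for Ugt1a1 (0.14 and 0.0502), Ugt1a2 (0.20 and 0.10), Ugt1a6 (0.16 and 0.10) and Ugt8 (0.60 and 0.28) by gavage and intravenously, and for Aldh1l2 (0.47), Ugt2b15 (0.18) and Ugt2b35 (0.20) intravenously. With the mean of all probes they changed intravenously for Aldh1l2 (0.32), Ugt2b15 (0.10), Rarg (-0.0573) and Slc6a6 (0.0043), and with normexp for Akr1c14 by gavage (-0.0688). Among related genes spike-in scaling turned Keap1 (0.17 and 0.48), Taldo1 (0.41 and 0.11), Slc6a12 (0.26 and 0.0262), and singly Gclm by gavage (0.14), Me1 by gavage (0.18) and Slc6a6 intravenously (0.54). Quantile normalization turned Taldo1 by gavage (0.0266) and Slc6a6 intravenously (0.0242). Leaving out 1 array moved intravenous changes across 0 for Aldh1l2 (-0.221 to 0.0049), Ugt2b15 (-0.7079 to 0.233), Ugt2b35 (-0.6967 to 0.2734), Ugt2b37 (-1.0029 to 0.0211), Ugt8 (-0.5094 to 0.1203) and Slc6a6 (-0.1563 to 0.1913), and the gavage change of Gclm (-1.0523 to 0.038).

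A fixed slide block leaves a gavage contrast that rests on slide 1 and its lone cisplatin array, assumed to vary like the other groups, with 6 rises and 23 falls; the intravenous effect could not be fitted. The replicate block gave 8 rises and 31 falls by gavage and 8 and 23 intravenously. Replicate numbers pair no samples here, since deviations of same-numbered arrays correlated at -0.352 to 0.182. Members near background, such as Akr1c14 and Akr1c2, are limited by signal.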
